A study of Anoectochilus roxburghii with 9 samples.

Results

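The response of leaf transcripts to ArPHR2 was measured in Anoectochilus roxburghii, an orchid grown as a medicinal plant. The comparison set 3 libraries of leaves that overexpressed ArPHR2 against 3 libraries of leaves with an empty vector (EV), out of 9 libraries in the series. All leaves carried the genotype label WT, were labelled as transiently overexpressing, and were taken at day 3. The remaining 3 libraries, from leaves with an ArPHR4 construct, entered the estimate of the spread and are otherwise given only beside single results. A deposited list of names attaches YFP to each construct and to the control, which it calls PHB-YFP. The sources used here do not say how the constructs were delivered, which promoter drove them or whether each library stands for a plant of its own, so p-values measure the spread between libraries, which may be technical.

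PHR proteins belong to the MYB-type transcription factors and are known from Arabidopsis and rice as central regulators of the response to phosphate shortage. They bind a short element in the promoters of phosphate transporter, phosphatase and lipid-remodelling genes, and SPX proteins hold them back while phosphate is plentiful. In those plants raised PHR activity turns on starvation genes and alters phosphate content in leaves, and related factors have been tied to symbiosis with root fungi. These statements are background and were not tested here, because the table names genes by assembly ID alone. The IDs are not paired with a symbol, a function or a sequence, so the ArPHR2 transcript was not looked up, the label was not checked against it, and the leaf identity of the samples was not checked against marker genes.

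Of the 85512 assembled genes, 27275 passed the expression filter and were tested. Library totals were 16488391 to 16547194 counts for EV and 16529182 to 17244083 for ArPHR2. Levels below are CPM, the usual depth-scaled count, here on library sizes scaled by TMM (edgeR's trimmed mean of M-values), and a gene is said to rise or fall where edgeR's quasi-likelihood test gave a Benjamini-Hochberg adjusted p under 0.05. By this rule 44.3% of the tested genes were called, 22.6% higher and 21.7% lower in ArPHR2. These are whole-leaf levels, in which fewer cells of a type and less RNA per cell cannot be told apart.

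The response was broad, mostly modest in size, and lopsided at its far end. The median change of rising genes was 0.75 on the log2 scale and that of falling genes was -0.52. A stricter test asked whether a change exceeded 1.5-fold. It called 11.9% of the tested genes, 2017 higher (7.4%) and 1231 lower (4.51%), so 62.1% of the larger changes were rises, against 51.0% of all calls. At the other end, 8964 genes (32.9%) had a 95% interval of the change that lay wholly within 1.5-fold either way. Of these, 3758 were called, with a small change that exceeded the spread between libraries, and 5206 were not. For 9997 uncalled genes the interval reached past 1.5-fold, so a change of that size was neither shown nor bounded.

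**Figure D1:**
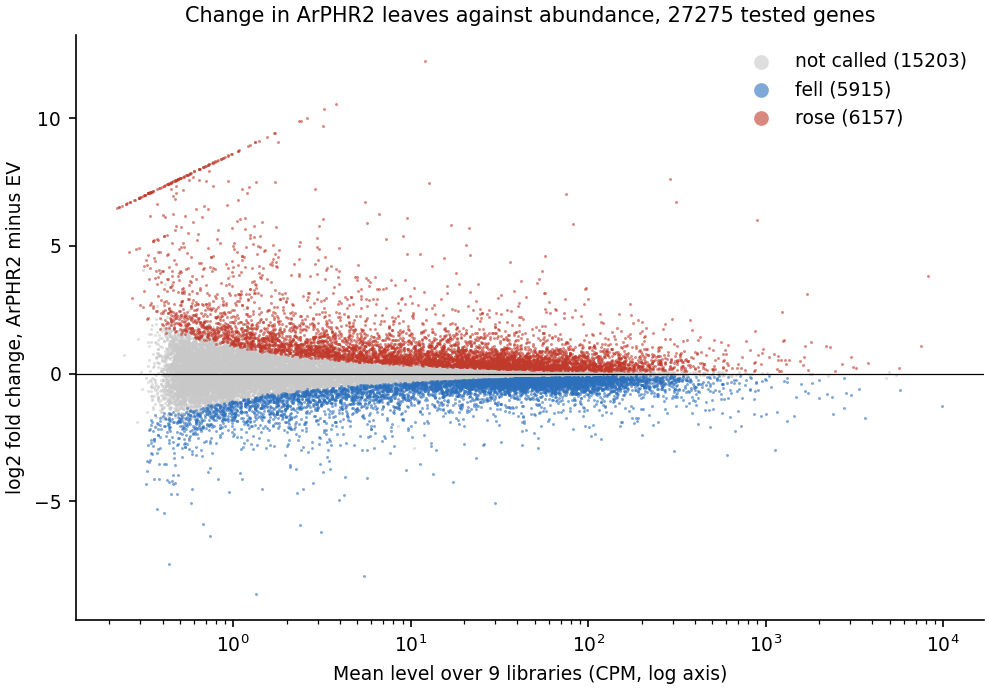
Each point is a tested gene, with its mean level over 9 libraries (CPM, log axis) on the x axis and its fitted log2 fold change (ArPHR2 minus EV) on the y axis, coloured by call (6157 rose, 5915 fell). The cloud narrows from left to right, large rises outnumber large falls, and the thin slanted line at upper left is made of genes without a count in EV, whose fitted value depends on a prior count.

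The larger the change, the more one-sided the response. Changes of at least 4-fold were seen in 830 rising and 317 falling genes, of at least 8-fold in 451 and 76, and of at least 32-fold in 216 and 11. Many of the far risers had next to no counts in EV, where a fitted fold is not a measured ratio: 179 of the 216 belonged to a set described further on. The asymmetry was also present outside that set. There, 372 rising and 162 falling genes that averaged 1 CPM or more changed by at least 4-fold, 158 and 32 by at least 8-fold, and 24 and 3 by at least 32-fold. Among all genes that averaged 10 CPM or more, 1313 rose and 982 fell by at least 1.5-fold, while 102 rose and 38 fell by at least 4-fold, 36 and 7 by at least 8-fold, and 16 and 2 by at least 16-fold. These averages were over the 9 libraries, of which 3 were EV. A gene raised by both constructs reaches such a level more easily than a gene lowered by both. The counts above a level are therefore no independent support for the asymmetry.

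**Figure D2:**
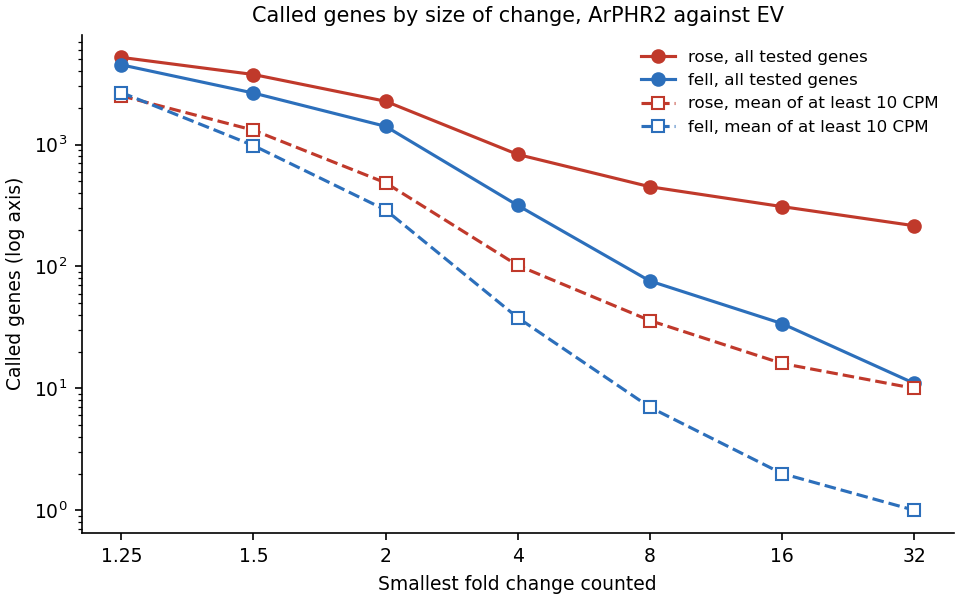
Number of called genes (log axis) that changed by at least the fold on the x axis, for rising and falling genes. Solid lines show all tested genes and dashed lines those that averaged 10 CPM or more over the 9 libraries. Genes raised by both constructs reach that level more easily than genes lowered by both. The 2 dashed lines start together and separate as the fold grows, from 1313 rising and 982 falling genes at 1.5-fold to 36 and 7 at 8-fold.

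The largest changes among well-expressed genes were 196- and 104-fold upward and 9.09- and 8.23-fold downward. The rule for these took called genes that averaged 100 CPM or more over the series and had no overlap between the EV and ArPHR2 libraries. A gene low in EV can reach this level through the construct libraries alone, whereas a gene lowered by both constructs must be high in EV. It held 1639 of the 2134 genes at that level, 684 that rose and 955 that fell. In all tested genes, 52.9% had no such overlap.

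TRINITY_DN2001_c0_g1 was at 2.35, 1.64 and 1.5 CPM in the EV libraries and at 367, 344 and 367 CPM in the ArPHR2 libraries. It went from rank 17760 of the tested genes in EV to rank 285 in ArPHR2. Its log2 fold change was 7.62 ± 0.080 (SE, edgeR adjusted p = 5.92e-36). Between the constructs 32.5% of all tested genes were called, 16.2% higher and 16.3% lower in ArPHR2. In ArPHR4 leaves this gene was higher still, at 506 ± 17.7 CPM (SD, n = 3), and the difference between the constructs was -0.49 ± 0.042 on the log2 scale (ArPHR2 minus ArPHR4, edgeR adjusted p = 2.47e-11).

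TRINITY_DN1079_c3_g1 was at 4.90, 5.10 and 4.98 CPM in EV and at 512, 530 and 521 CPM in ArPHR2. The spread within each group was a small part of the gap. Its log2 fold change was 6.70 ± 0.059 (SE, edgeR adjusted p = 6.25e-38), and it was 0.33 ± 0.037 higher than in ArPHR4 on the log2 scale (edgeR adjusted p = 8.63e-09).

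TRINITY_DN3336_c0_g2 fell from 1590, 1579 and 1488 CPM in EV to 167, 160 and 185 CPM in ArPHR2, from rank 42 to rank 939. Its log2 fold change was -3.18 ± 0.046 (SE, edgeR adjusted p = 5.69e-32). The ID has 1 tested sibling in its assembly component, with which it can share reads. In ArPHR4 the fall went further, to 88.4 ± 2.23 CPM (SD, n = 3), a log2 difference of 0.95 ± 0.047 between the constructs (ArPHR2 minus ArPHR4, edgeR adjusted p = 3.56e-17).

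TRINITY_DN14363_c0_g1 fell from 760, 746 and 747 CPM to 87.1, 95.1 and 91.4 CPM. The EV and ArPHR2 libraries were far apart, and its log2 fold change was -3.04 ± 0.042 (SE, edgeR adjusted p = 1.66e-32). It was 0.33 ± 0.044 higher in ArPHR2 than in ArPHR4 on the log2 scale (edgeR adjusted p = 2.65e-07).

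The most abundant transcripts of the control leaf were mainly lowered. Of the 20 most abundant genes in EV, 13 fell, 4 rose and 3 were not called. The 1.5-fold test was passed by 11 falling genes and by 1 rising gene. A list ranked on the EV level favours genes that fell. Among the 2728 tested genes with the highest mean CPM over the 9 libraries, 77.5% were called, with 1253 falling and 862 rising. Past 1.5-fold, 217 of those fell and 207 rose. Together these 20 genes took 9.70% of the counts in EV and 6.93% in ArPHR2. The lists turned over in part: 11 of the 20 most abundant EV genes were also among the 20 most abundant of ArPHR2, and 76 of the top 100.

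The leading EV gene read 16198, 16100 and 15460 CPM in the control libraries and 6567, 6516 and 6747 CPM in ArPHR2, where it held rank 3. The EV gene at rank 20 showed the steepest fall of this list, from 2874, 2846 and 2828 CPM to 359, 354 and 365 CPM (log2 fold change -2.99 ± 0.037 SE, edgeR adjusted p = 5.48e-34). Its neighbour at rank 19 dropped from 2848, 2899 and 2906 CPM to 802, 790 and 798 CPM (log2 fold change -1.86 ± 0.036 SE, edgeR adjusted p = 2.43e-28). In both genes the groups lay far apart, and each has a tested sibling ID. The rank 10 gene also moved well beyond its spread, from 4681, 4556 and 4340 CPM to 1498, 1422 and 1621 CPM.

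The 3 uncalled genes of this list were near the top of it. The one at rank 4 was at 6035, 5968 and 5793 CPM in EV and at 5511, 5567 and 5957 CPM in ArPHR2, with overlap between the groups. Its log2 fold change was -0.06 ± 0.034 (SE, edgeR adjusted p = 0.134), and it was called lower with upper-quartile scaling (-0.075), with limma-voom (-0.065) and without ArPHR2 replicate 3 (-0.10). The gene at rank 6 varied as much within groups as between them, with 4223, 5649 and 5656 CPM in EV and 4032, 4220 and 5654 CPM in ArPHR2 (log2 fold change -0.16 ± 0.096 SE, edgeR adjusted p = 0.186). It was called lower with no filter (-0.15), with the library number as a replicate block (-0.17, or -0.15 in the 6 libraries alone), without EV replicate 1 (-0.28) and without ArPHR2 replicate 3 (-0.33). The gene at rank 7 was at 5324, 5089 and 5016 CPM in EV and at 5269, 5162 and 5609 CPM in ArPHR2, a log2 fold change of 0.06 ± 0.035 (SE, edgeR adjusted p = 0.2), and it was called higher with limma-voom (0.054), on raw totals without TMM (0.12) and with limma on log2(FPKM + 1) (0.21).

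**Figure D3:**
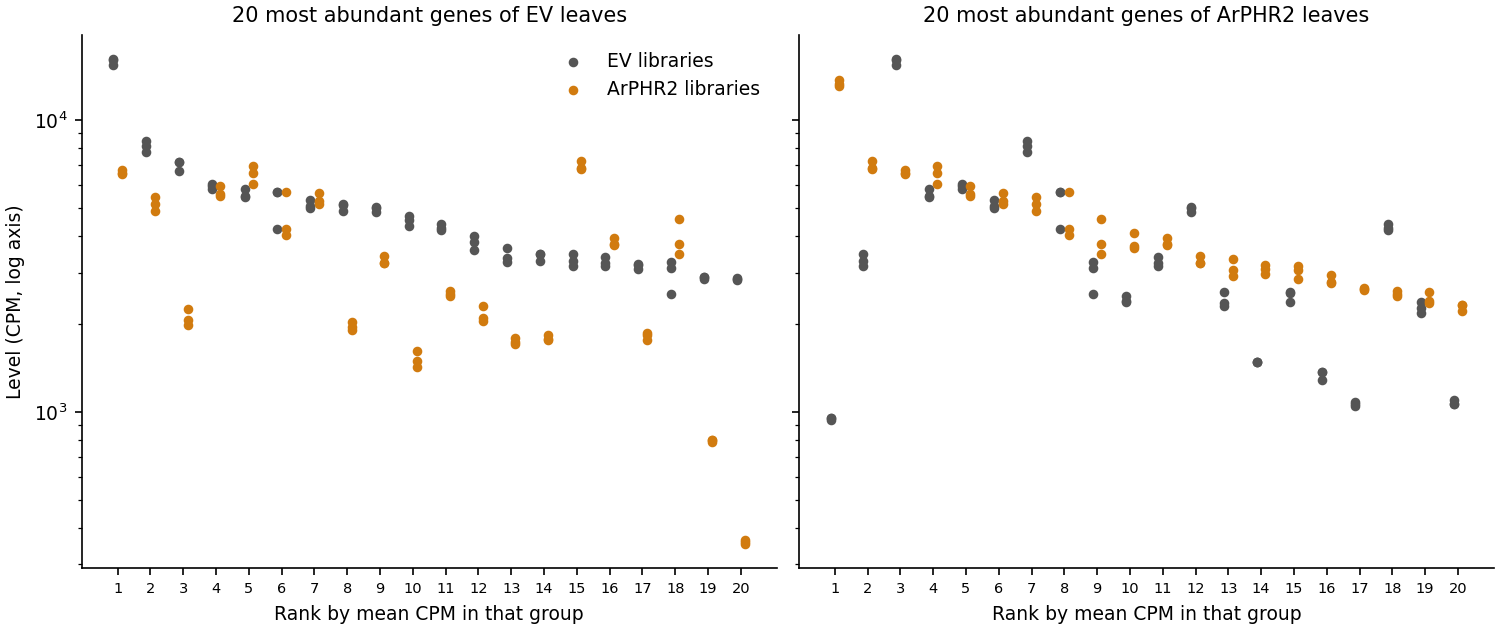
Level in each EV and ArPHR2 library (CPM, log axis) of the 20 most abundant genes of EV leaves (left) and of ArPHR2 leaves (right), ordered by rank. Points are single libraries. At left most ArPHR2 points lie under the EV points, down to 354 to 365 CPM at rank 20; at right the leading gene stands at 13103 to 13736 CPM in ArPHR2 and at 941 to 956 CPM in EV.

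A single transcript rose to the top of the ArPHR2 leaves. It was at 941, 954 and 956 CPM in EV, rank 80, and at 13294, 13736 and 13103 CPM in ArPHR2. It alone made up 8.97% of all the share of counts gained by rising genes. The rise was not particular to ArPHR2, since the ArPHR4 libraries read 10149, 10373 and 10647 CPM. ArPHR2 was higher than ArPHR4 by 0.36 ± 0.032 on the log2 scale (SE, edgeR adjusted p = 3.87e-11). Of the 20 most abundant ArPHR2 genes 13 had risen, 4 had fallen and 3 were not called, with 6 rises and 2 falls past 1.5-fold. Such a list favours genes that rose, as the EV list favours genes that fell, so the 2 counts are descriptions of what each leaf held most of.

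Among the 10 largest gains in CPM were genes that came from far down the list. The gain at rank 9 went from 21.1, 19.2 and 22.5 CPM to 1359, 1368 and 1365 CPM, from rank 8655 to rank 50 (log2 fold change 6.03 ± 0.049 SE, edgeR adjusted p = 1.01e-38). Its ArPHR4 level was close by, at 1300 ± 12 CPM (SD, n = 3), with a log2 difference of 0.07 ± 0.035 (edgeR adjusted p = 0.14). The gain at rank 6 went from 212, 193 and 200 CPM to 1792, 1655 and 1813 CPM, and was lower than in ArPHR4 by 0.86 ± 0.042 on the log2 scale (edgeR adjusted p = 2.32e-17).

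The gain at rank 4 separated the constructs most clearly in this list. It stood at 1077, 1060 and 1050 CPM in EV and at 2647, 2624 and 2664 CPM in ArPHR2, a log2 fold change of 1.32 ± 0.036 (SE, edgeR adjusted p = 2.19e-24). In the ArPHR4 libraries it was at 115, 103 and 105 CPM, below EV. The difference between the constructs was 4.61 ± 0.043 on the log2 scale (ArPHR2 minus ArPHR4, edgeR adjusted p = 4.71e-37).

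The called genes carried a large part of the leaf mRNA. Genes that rose took 23.5% ± 0.0770 of the counts in EV and 37.5% ± 0.0717 in ArPHR2 (SD, n = 3). Genes that fell took 50.7% ± 0.188 and 35.6% ± 0.0477. The 15203 uncalled genes held 25.3% ± 0.116 and 26.4% ± 0.0772. In ArPHR4 the rising, falling and uncalled sets averaged 37.7%, 35.3% and 26.5%, close to ArPHR2. The sets were chosen against the same EV libraries, and sums can hide single genes: 32.5% of tested genes were called between the constructs. Between EV and ArPHR2 the direction of these sums follows from the calls and is no separate result. A few genes carried much of the shift: 10 of the 6157 rising genes made up 20.5% of the gain of 14.0% of counts, and 170 made up 50%. For the loss of 15.2%, 10 of the 5915 falling genes made up 20.3% and 126 made up 50%.

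The mRNA pool was also more evenly spread over genes in ArPHR2. The number of most abundant genes that together held 50% of the counts was 1180, 1187 and 1202 in EV and 1304, 1318 and 1257 in ArPHR2. The 1000 most abundant genes held 47.2%, 47.1% and 46.8% in EV and 45.4%, 45.2% and 46.1% in ArPHR2. The groups did not overlap in either measure, while the share of the 10 most abundant genes did overlap, at 6.43% to 6.56% in EV and 6.16% to 6.50% in ArPHR2. Genes with at least 10 counts numbered 24393 to 24979 in EV and 25455 to 26685 in ArPHR2. Of 7 such measures 6 showed no overlap between EV and ArPHR2. Each of the 6 gave p = 0.1, the lowest possible in an exact two-sided permutation test of 3 against 3 libraries. After Benjamini-Hochberg adjustment over the 7 measures this test gave 0.117. In ArPHR4, which was not tested here, 1425 to 1443 genes held 50% of the counts and the top 1000 held 43.5% to 43.8%. Genes with at least 10 counts numbered 25347 to 25468 there. Those with at least 1 count were fewer in ArPHR4 (46343 to 46756) than in EV (48035 to 48996).

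Direction depended on how abundant a gene was. Ranked by mean CPM over the 9 libraries, the tested genes were placed in 10 equal bins, from bin 1 (0.222 to 0.629 CPM) to bin 10 (83.6 to 9924 CPM). In bin 10, 862 genes rose and 1253 fell, so rises made up 40.8% of the calls. They made up 40.9% in bin 9, 47.4% in bin 8 and 55.4% to 63.9% in each of bins 1 to 7. The median change of all genes of a bin went from 0.12 on the log2 scale in bin 1 to -0.07 in bin 10, so the tilt was a small displacement of many genes.

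The tilt was shared by the single libraries. In bin 10 the median log2 deviation from EV was -0.08, -0.08 and -0.06 in the 3 ArPHR2 libraries, and between -0.03 and 0.02 in the EV libraries, each set against the other 2. In bin 5 it was 0.09, 0.09 and 0.06, against -0.03 to 0.02. In bins 2 to 4 and bin 8 at least 1 ArPHR2 library lay within the EV range, so there the displacement was not larger than the spread between libraries.

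**Figure D4:**
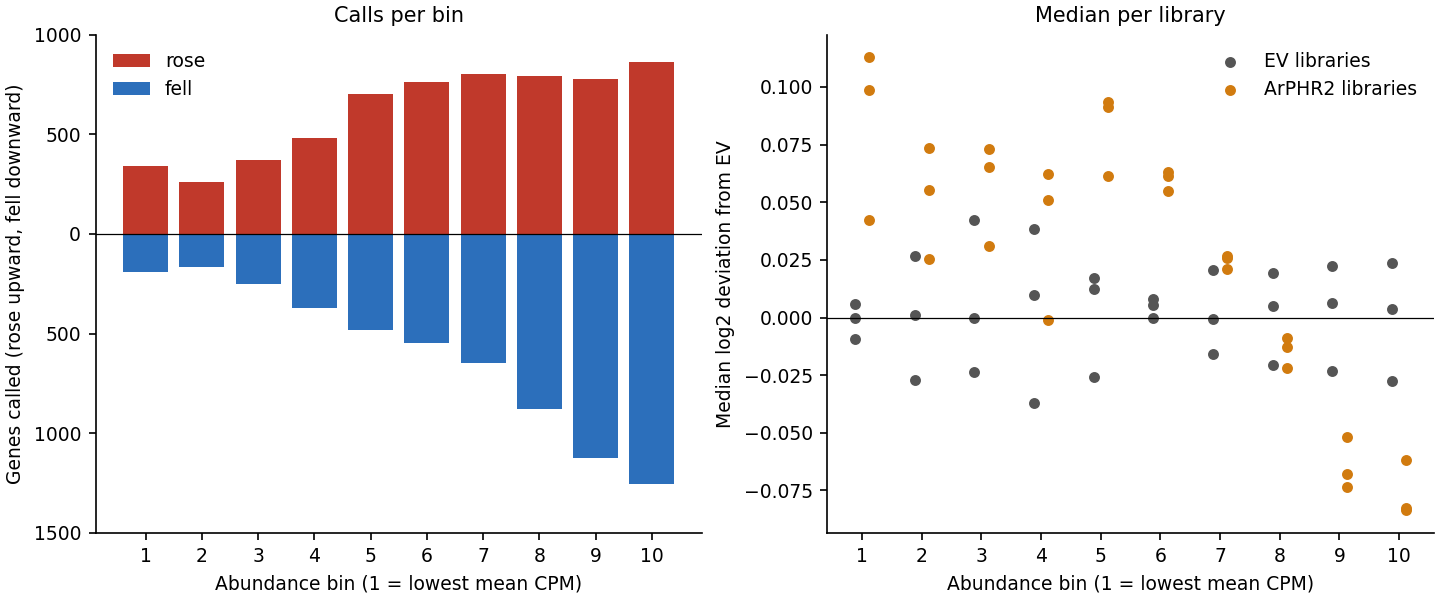
Left, genes that rose (upward) and fell (downward) in each of 10 bins by mean CPM; right, the median log2 deviation from EV of the genes of each bin, 1 point per library, for EV (grey) and ArPHR2 (orange). On TMM-scaled counts falling calls outnumber rising calls from bin 8 on (877 against 791; without TMM 715 against 940), and in bins 9 and 10 all 3 ArPHR2 points lie below the EV points.

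Large changes did not follow the same split. Past 1.5-fold, bin 10 held 207 rising and 217 falling genes and bin 9 held 156 and 127, while in bins 1 to 8 rises led, from 57.6% in bin 4 to 73.6% in bin 1. In bins 9 and 10 the excess of falling genes on TMM-scaled counts therefore lay mainly in genes that did not pass the 1.5-fold test. The median called fall in bin 10 was -0.36 and the median called rise 0.39 on the log2 scale. At the very top this differed: of the 20 most abundant EV genes, 11 falls and 1 rise passed 1.5-fold, in a list that favours falls. The power to see a change also differed between bins. The median SE was 0.65 in bin 1 and 0.047 in bin 10, and the smallest called change was 1.36 and 0.092. Calls covered 19.6% of bin 1 and 77.5% of bin 10, and in bins 1 to 3 no gene had an interval that lay within 1.5-fold, so small changes were not detectable there.

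The filter admits a gene that is high in 1 group alone, and such a gene is likely to differ. Genes that reached the filter's level of 0.604 CPM in all ArPHR2 libraries but in neither other group in full numbered 1040, of which 451 rose, and the same through EV alone held for 1272, of which 425 fell. Counts of calls in the lowest bins therefore depend on which groups let a gene pass. Bins were also formed from the ArPHR4 libraries, which are no side of the comparison but are tied to the response. Genes called higher in ArPHR2 held 37.7% of counts in ArPHR4, against 37.5% in ArPHR2 and 23.5% in EV. On this axis genes raised by both constructs move to higher bins and genes lowered by both to lower bins. With these bins, rises made up 51.5% of the calls in bin 1 (372 rose and 350 fell, and 307 and 167 past 1.5-fold). The median change of all genes of that bin was -0.19 and so had turned its sign. In bin 2 rises made up 46.9% (207 rose and 234 fell, and 78 and 105 past 1.5-fold). They made up 60.3% in bin 6, 47.0% in bin 8, 43.0% in bin 9 and 47.3% in bin 10 (994 rose and 1109 fell). With abundance set by the ArPHR4 libraries, the lead of rising genes was thus lost in bin 2. In bin 1 it narrowed among all calls and held past 1.5-fold. Because this axis moves with the response, no conclusion on the tilt is drawn from these bins.

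Direction also went with the length of a gene, and longer genes had higher CPM. CPM is not divided by length, so the abundance scale used here is itself tied to length. Count divided by FPKM and depth gives the approximate length in bases that the authors' processing assigned to each gene. Its median was 487 in bin 1 and 1486 in bin 10. The genes were placed in 5 equal classes by this length. In class 1 (up to 403 bases) 1176 genes rose and 590 fell, and in class 5 (from 1618 bases) 1306 rose and 1837 fell. The share of rises went from 66.6% through 56.6%, 52.0% and 46.8% to 41.6%. The median log2 deviation in class 1 was 0.17, 0.12 and 0.14 in the ArPHR2 libraries and within -0.02 to 0.03 in EV, and in class 5 it was -0.07, -0.05 and -0.08 against -0.01 to 0.01.

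Which direction led among abundant or long genes depended on the scaling. The median change of all tested genes was 0.01 on the log2 scale with TMM and 0.08 without it, a shift about as large as the displacement in bin 10. The TMM factors were 0.953 to 0.973 in EV and 0.994 to 1.02 in ArPHR2. With edgeR on raw totals without TMM, rises made up 67.8% of the calls in bin 1, 56.8% in bin 8, 50% in bin 9 (938 each way) and 48.6% in bin 10 (1034 rose and 1093 fell). By length they then went from 71.8% in class 1 to 50.3% in class 5. The decline along both scales was present with and without TMM, while the lead of falling genes in bins 8 and 9 and in length class 5 was lost without it. On TMM-scaled counts limma-voom gave 40.7% in bin 10 and 40.7% in class 5.

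The FPKM values, which the authors divided by length, bear on the same pattern. A single limma model was applied to log2(CPM + 1) on raw totals and to log2(FPKM + 1). By abundance the pair differed little, with rises at 56.6% and 56.3% of the calls in bin 8, 50.2% and 49.7% in bin 9 and 48.5% and 49.3% in bin 10. By length, rises went from 69.5% in class 1 to 50.1% in class 5 on CPM and from 57.0% to 51.8% on FPKM, so the decline with length was smaller on FPKM. The length that count and FPKM imply had itself moved with the group. Where all libraries had 100 counts or more and an FPKM of 5 or more, it was longer in ArPHR2 by a median log2 difference of 0.13 in class 1 (664 genes) and of 0.01 in class 5 (3535 genes). The part of this shift in the tilts by length and by abundance was not tested.

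**Figure D5:**
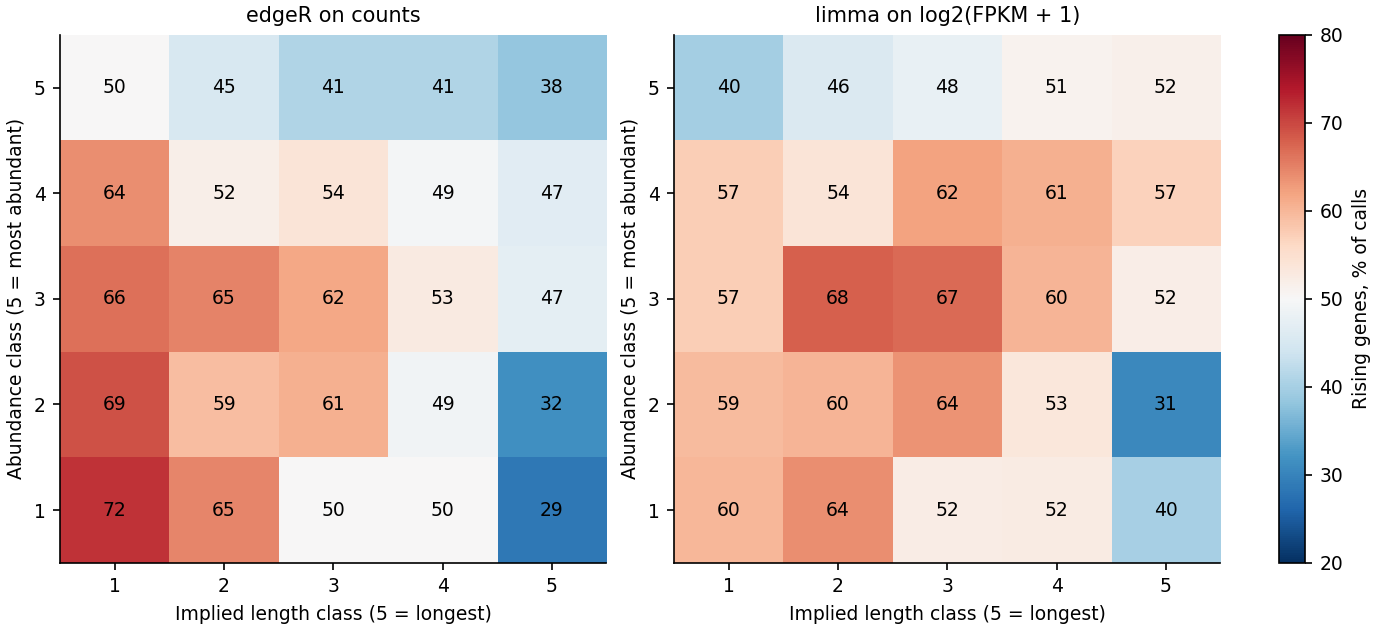
Rising genes as a percent of all calls, by abundance class (y axis, 5 = most abundant) and implied length class (x axis, 5 = longest), from edgeR on TMM-scaled counts (left) and from limma on log2(FPKM + 1) without TMM (right). On counts the share is lower in length class 5 than in class 1 at every abundance, for instance 38.4% against 50% in abundance class 5. On FPKM it is lower in 4 of the 5 abundance classes, from 30.7% against 59.5% in abundance class 2 to 56.9% against 57.3% in abundance class 4, and higher in abundance class 5 (51.5% against 39.9%). The cell of lowest abundance and greatest length holds 42 genes, of which 7 were called on counts.

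At the bottom of the scale, ArPHR2 leaves contained transcripts that EV leaves nearly lacked. Genes with at least 10 counts in each ArPHR2 library and at most 3 counts over the EV libraries numbered 222, and genes with the reverse pattern 19. This is an account of how these genes were chosen, and no test was made on them. The 222 genes summed to 428, 419 and 456 CPM in the ArPHR2 libraries, and to 2.42, 2.96 and 2.24 CPM in EV. The median coefficient of variation of a gene over the 3 ArPHR2 libraries was 22.5%. The 19 genes summed to 40.0, 39.8 and 42.2 CPM in EV and to 0.457, 0.873 and 0.853 CPM in ArPHR2.

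Most of these 222 transcripts were scarce. Their median level in ArPHR2 was 1.34 CPM and 11 reached 5 CPM, with a highest value of 36.1 CPM. Their median implied length was 556 bases, against 922 for all tested genes. In EV 155 of them had no count at all. In the ArPHR4 libraries, which the choice did not use, 171 had no count and 19 had at least 10 counts in each library, and the set summed to 63.0, 60.9 and 69.5 CPM. The filter on expression was passed by 205. What these transcripts encode, and which organism they come from, is not given by the files, and neither was tested.

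Transcripts assembled from 1 component did not always move together. Of 2801 components with at least 2 tested IDs, 771 had 2 or more called. Among these 254 had only rises, 211 only falls, and 306 (39.7%) had calls in both directions. IDs of 1 component can share reads, and whether opposite calls reflect the division of reads among them was not tested. Calls were about as frequent in IDs with a tested sibling (46.5% of 6089) as in those without (43.6% of 21186).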

How the data were processed

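Messenger RNA of 9 leaf libraries was analysed, 3 each for EV, ArPHR2 and ArPHR4. Per the labels' protocols, RNA came from a column kit and libraries from a SMARTER kit. For aligner, counting tool, strand setting and assembly the entry is "not given in the sources used here". Per gene and library, the authors deposited a count and an FPKM, per the file headers, and no column was left out. A file of unnamed pairwise values and a list of names gave no measurement.

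Counts were fitted with edgeR 4.0.16 (R 4.3.3), TMM scaling, filterByExpr by group and 1 quasi-likelihood model of 3 group means over 9 libraries (6 residual degrees of freedom). The 1.5-fold test was glmTreat. SE is the log2 change divided by the square root of F. Tested genes held 99.4% to 99.6% of counts. Alternatives used DESeq2 1.42.0, limma 3.58.1 on FPKM, voom, other scalings and filters, and left-out libraries. The fits were run on simulated data with far fewer changed genes than were called here. That run did not test the scaling. Permutation tests used scipy 1.17.1. Per-library deviations used log2(CPM + 0.5).

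Within a group, squared differences between libraries were 2.12 to 3.35 times counting noise, so no pair looked like 1 library. No label pairs libraries by number, and libraries of equal number showed next to no correlation of their deviations (see the closing section).

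The comparison and the rules were chosen with earlier results of these data known. The intervals within 1.5-fold, the counts by fold, the split by filter group the grid of length and abundance and the fits without TMM, with limma-voom by class and on log2(CPM + 1) were chosen after seeing the files. IDs printed are the 2 largest rises and 2 largest falls among called genes averaging 100 CPM or more without overlap; other genes are given by rank in level (20 per group) or in CPM gained or lost (10 each). Gene lists by function could not be applied, since IDs carry no names.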

Additional observations from a re-analysis of the deposited data

How the results depend on the processing

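Calls numbered 12072 and stayed within 1.5 times of that under every alternative run. The 3248 changes past 1.5-fold became 2142 with DESeq2 (763 of them lower) and 1641 with limma on log2(FPKM + 1) (1101 higher and 540 lower); the cause was not tested. Rising calls per falling call in the least abundant bin fell from 1.77 to 1.06 when abundance came from the ArPHR4 libraries, which are tied to the response. This ratio had no value with no filter, where that bin held no call. By implied length, limma on log2(FPKM + 1) moved this ratio from 1.99 to 1.33 in the shortest class and from 0.71 to 1.07, a reversal, in the longest, where raw totals without TMM gave 1.01 and limma on log2(CPM + 1) gave 1.00 (both added after seeing the data). Genes detected in ArPHR2 and not in EV numbered 473 with at least 5 counts and 91 with at least 20. The reverse set numbered 99 and 6, was 2 with no count allowed in ArPHR2, and ranged from 27 to 45 when each library was left out, where fewer libraries share the limit of 3 counts. Components with opposite calls dropped from 306 to 29 at 2-fold or more, which counts fewer genes. Of 38 genes given by ID or rank, 33 kept their call in every fit and none reversed. Those that did not were at EV ranks 4, 6, 7 and 18 and at ArPHR2 rank 19, the last with a log2 change of 0.10. This last gene lost its call without EV replicate 2 or 3 or ArPHR2 replicate 3. It also lost it with limma on log2(FPKM + 1) and on log2(FPKM + 0.1), with a log2 change of 0.061 in each.

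No label says that library numbers pair libraries, and between EV and ArPHR2 libraries of equal number the deviations gave r from 0.017 to 0.024. With a replicate block 12007 genes were called, and 12063 with the block in the 6 libraries alone, an alternative added after seeing the data. Depth limits the lowest bins, where only large changes could be called.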
